A study of Mus musculus with 6 samples.

Results

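The Zfp genes are mouse genes named for the zinc finger in their protein. The genes described here are those whose symbol is Zfp followed by a number and whose raw count averaged at least 60 reads over the 6 libraries, which held for 207 of 358 Zfp genes among the 15565 genes counted. They were thus chosen by their name and by their mean raw count over all libraries. The count limit made no use of group labels, but the Zfp genes were chosen with earlier results of these data known. The limit of 60 was reached by the TERT(High) mean alone for 31 of them, Zfp62 and Zfp292 among these, and by the TERT(Low) mean alone for 1. The RNA came from hepatocytes, the main working cells of the liver, freed by collagenase perfusion and sorted by TERT status. Each of 3 C57BL/6 mice, 2 months old, gave a TERT(High) and a TERT(Low) library of polyadenylated RNA. All mice had the genotype Tert(CreERT2/+); R26(LSL-Tomato/+), that is, Tert driving a tamoxifen-inducible Cre from a single allele, and a red fluorescent reporter at the Rosa26 locus that Cre switches on. Tert encodes the catalytic subunit of telomerase. Both groups thus had the knocked-in allele of Tert and 1 unmodified allele. The sources used here give neither the sort gate nor a tamoxifen dose.

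A zinc finger is a short fold held by a zinc ion. In the C2H2 type a pair of cysteines and a pair of histidines hold the zinc, and arrays of such fingers read DNA bases in turn, so most Zfp proteins are DNA-binding factors. Many also carry a KRAB domain, which recruits the corepressor TRIM28 and through it the histone methyltransferase SETDB1, and these KRAB zinc finger proteins are best known for silencing retroelements and for keeping imprinted marks. The CCCH type holds zinc by cysteines and a single histidine, and its best known members, the ZFP36 family, bind AU-rich elements of messenger RNA and recruit the CCR4-NOT deadenylase, which shortens the poly(A) tail. KRAB zinc finger genes stand in clusters that arose by tandem duplication, so their sequences can be nearly alike.

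The coding sequences below show these folds in genes that carry the results, 5′ to 3′ on the coding strand, from GENCODE M21 transcripts on GRCm38. In the C2H2 fingers the capitals mark the codons of the zinc-holding cysteines and histidines. Zfp445 and Zfp62 had the largest differences that passed the test, Zfp148 and Zfp281 are related factors that both passed it, and Zfp97 and Zfp960 show a pair whose reads are hard to tell apart.
Zfp445, codons 472 to 492: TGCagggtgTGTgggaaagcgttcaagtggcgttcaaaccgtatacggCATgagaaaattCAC
Zfp62, codons 126 to 146: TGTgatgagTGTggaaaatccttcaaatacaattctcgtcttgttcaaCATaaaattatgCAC
Zfp148, codons 173 to 193: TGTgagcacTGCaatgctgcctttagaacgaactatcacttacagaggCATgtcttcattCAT
Zfp281, codons 260 to 280: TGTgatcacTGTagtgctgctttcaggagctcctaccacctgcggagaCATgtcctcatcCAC
Zfp97, codons 160 to 180: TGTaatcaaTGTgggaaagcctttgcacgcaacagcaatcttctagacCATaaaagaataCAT
Zfp960, codons 160 to 180: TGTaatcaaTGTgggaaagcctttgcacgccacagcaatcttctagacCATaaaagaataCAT
The Zfp148 and Zfp281 fingers were identical at 45 of 63 bases (71.4%), and those of Zfp97 and Zfp960 at 62 of 63 (98.4%).

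In the CCCH fingers the capitals again mark the codons that hold the zinc, and the 3 genes are shown because they are the CCCH genes of the group.
Zfp36, codons 101 to 120: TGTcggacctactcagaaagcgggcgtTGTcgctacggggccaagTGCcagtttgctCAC
Zfp36l1, codons 120 to 139: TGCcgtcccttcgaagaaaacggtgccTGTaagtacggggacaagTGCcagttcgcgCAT
Zfp36l2, codons 161 to 180: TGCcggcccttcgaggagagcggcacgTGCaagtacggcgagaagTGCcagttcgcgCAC
Zfp36 was identical to Zfp36l1 at 42 of these 60 bases (70.0%), and Zfp36l1 to Zfp36l2 at 49 (81.7%).

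The KRAB core is shown for the 3 KRAB genes that passed the test as higher in TERT(High) cells, with the codon of its last tryptophan in capitals.
Zfp445, codons 223 to 233: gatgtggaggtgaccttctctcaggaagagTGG
Zfp68, codons 14 to 24: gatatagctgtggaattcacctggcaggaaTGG
Zfp317, codons 64 to 74: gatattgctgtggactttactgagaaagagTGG
Zfp68 and Zfp317 were identical at 24 of these 33 bases (72.7%).

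The libraries held between 53585174 and 64065266 counts for TERT(High) cells and between 55355819 and 76164917 for TERT(Low) cells. Levels are given as counts scaled to a common library size (CPM, with TMM scaling), and values listed by library follow mice 1, 2 and 3. Tert itself had 38, 33 and 30 counts in TERT(High) cells and 21, 21 and 12 in TERT(Low) cells, which did not overlap. Its log2 fold change came to 0.87 (SE 0.44) with an edgeR adjusted p of 0.249, and an exact permutation test of its CPM, two-sided, returned 0.1, the lowest p that 3 libraries against 3 allow. The 8 hepatocyte markers summed to 112162 to 124206 CPM in TERT(High) libraries and 101309 to 124315 in TERT(Low) libraries, and 1 of the 8 passed the test as lower in TERT(High) cells, with a median log2 fold change of -0.44 over the 8. The 6 endothelial markers summed to 23.7 to 45.0 CPM in TERT(High) libraries, all above the 17.5 to 19.1 in TERT(Low) libraries, and 2 of the 6 passed the test as higher in TERT(High) cells. The macrophage list reached 7.20 to 49.4 CPM in TERT(High) libraries and 5.4 to 16.7 in TERT(Low) libraries, and the neutrophil list 1.63 to 4.72 CPM in TERT(High) libraries and 0.272 to 1.46 in TERT(Low) libraries. The stellate list reached 3.77 to 137.6 CPM in TERT(High) libraries, the highest in mouse 1 and nearly all from the collagen gene Col1a1, and 3.61 to 8.94 in TERT(Low) libraries. The cholangiocyte list reached 2.05 to 11.7 CPM in TERT(High) libraries and 2.13 to 3.26 in TERT(Low) libraries, and the erythroid list 14.7 to 120.1 CPM in TERT(High) libraries and 29.2 to 48.8 in TERT(Low) libraries. The T or NK cell list stayed at or under 0.446 CPM and the B cell list at or under 0.261 CPM in every library. The part of these other cell types in the results below was not tested.

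As a group the Zfp genes leaned to the TERT(High) side. Summed over the 207 genes, the level was 1254, 1244 and 1302 CPM in TERT(High) cells and 943, 1023 and 957 CPM in TERT(Low) cells, that is 1266.9 ± 31.1 CPM in TERT(High) cells and 974.6 ± 42.8 CPM in TERT(Low) cells (SD, n = 3 each), with no overlap. They took up 0.142%, 0.118% and 0.142% of all counts in TERT(High) libraries and 0.0909%, 0.0957% and 0.0912% in TERT(Low) libraries. The log2 fold change of TERT(High) over TERT(Low) was above 0 for 174 of the 207 (84.1%), against 49.2% of the 13288 genes tested, and its median was 0.55 (quartiles 0.12 and 0.95) with a median SE of 0.30, against -0.01 (quartiles -0.43 and 0.50) over all genes tested. Without the TERT(High) library of mouse 1 the median was 0.49, and over genes with a mean raw count of at least 120 it was 0.49. The 31 genes that reached the limit of 60 in TERT(High) cells alone are among the 207, and no value was computed without them. The same lean appeared within each mouse, with 157 genes (75.8%, against 45.6% of all genes) higher in TERT(High) cells of mouse 1, 167 (80.7%, against 50.4%) in mouse 2 and 159 (76.8%, against 55.6%) in mouse 3. In these sorted bulk samples, fewer cells that express a gene and less of its RNA per cell cannot be told apart.

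Single genes were then tested. With edgeR's quasi-likelihood test on the whole table, 13 of the 207 (6.28%) had an adjusted p under 0.05 with the higher level in TERT(High) cells, against 4.43% of all genes tested, and 0 were lower, against 3.71% (8.14% in either direction). At an unadjusted p under 0.05 there were 76 higher (36.7%, against 16.3%) and 6 lower (2.9%, against 12.4%), DESeq2 called 44 higher and 3 lower (21.3% and 1.45%, against 12.9% and 10.9%), and limma-voom called 8 higher and 0 lower (3.86% higher, against 3.88% and, for lower, 3.42%). TERT(High) libraries lay wholly above TERT(Low) libraries for 76 genes (36.7%, against 17.5% of all genes) and wholly below for 8 (3.86%, against 15.9%). In all 3 mice the level was higher in TERT(High) cells for 121 genes (58.5%, against 28.2%), in 2 mice for 49 (23.7%, against 22.8%), in 1 mouse for 22 (10.6%, against 21.5%) and in none for 15 (7.25%, against 27.6%). The log2 fold change passed 1 for 46 genes (22.2%, against 10.7%), and 1 gene was below -1 (0.483%, against 5.53%). The 13 calls depended on the libraries. Without the TERT(High) library of mouse 1, 14 Zfp genes were higher (6.76%, against 6.85% of all genes) and 1 lower (0.483%, against 5.21%). Of the 13, 5 passed there, and 0 of the 13 passed with any other library or any mouse left out, where no gene of the whole table passed. In every one of those fits all 13 kept an unadjusted p under 0.05 and a log2 fold change between 0.71 and 2.36. In the authors' deposited table, 53 Zfp genes were higher and 1 lower at an adjusted p under 0.05. These were 25.6% and 0.483%, against 15.8% and 13.4% of the 10858 genes listed there. All 13 were among the higher ones. For some Zfp genes the mean level in that table was far from the mean raw count used here, as for Zfp780b (1529.5 against 200.5). For the 13 both means lay close, as for Zfp445 (515.8 and 505.7). The reason for the larger gaps was not tested.

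**Figure D1:**
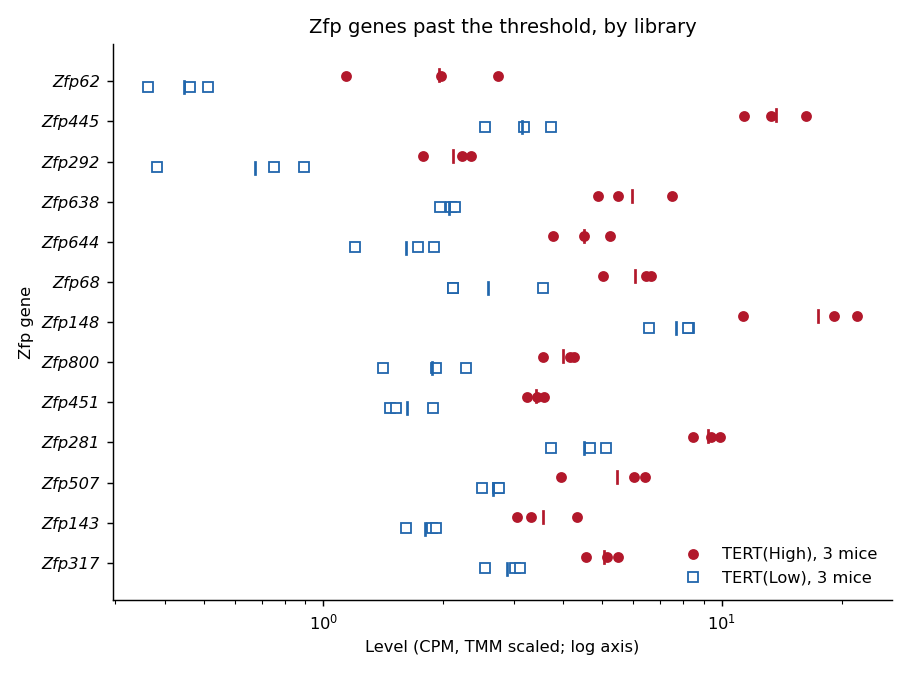
Level of each of the 13 Zfp genes past the threshold in every library, in CPM on a log axis. Filled red circles are the 3 TERT(High) libraries, open blue squares the 3 TERT(Low) libraries and vertical bars the group means, and the groups do not overlap for any of the 13.

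Of the 91 genes with KRAB and C2H2 matches, 3 passed as higher in TERT(High) cells and 0 as lower. Of all genes tested, 4.43% were higher and 3.71% lower. Zfp445, which in mouse works with ZFP57 to keep imprinted marks, lies on GRCm38 at chr9:122848910-122886851. It had 16.3, 11.4 and 13.3 CPM in TERT(High) cells and 3.72, 2.54 and 3.19 CPM in TERT(Low) cells, a log2 fold change of 2.11 (SE 0.23, edgeR adjusted p = 0.0241). The lowest TERT(High) library was well above the highest TERT(Low) one, and the gene overlaps Zkscan7, so reads in the overlap are uncertain. Zfp68 (chr5:138603652-138619743) had 6.66, 5.02 and 6.47 CPM in TERT(High) cells and 2.11, 2.12 and 3.55 CPM in TERT(Low) cells, with a log2 fold change of 1.22 (SE 0.27, edgeR adjusted p = 0.0457). Zfp317 (chr9:19622038-19649743) had 4.57, 5.14 and 5.49 CPM in TERT(High) cells and 3.02, 2.54 and 3.11 CPM in TERT(Low) cells. Its groups lay close but apart, with a log2 fold change of 0.81 (SE 0.19, edgeR adjusted p = 0.0487), and with the mouse as a block its adjusted p was 0.0566.

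Among KRAB genes of known function that did not pass, Zfp568, which represses a placental promoter of Igf2 in mouse, had 6.53, 5.0 and 6.42 CPM in TERT(High) cells and 3.23, 2.58 and 3.79 CPM in TERT(Low) cells. Its log2 fold change came to 0.90 (SE 0.22, edgeR adjusted p = 0.0549), and with the mouse as a block the adjusted p was 0.0450. Zfp809, which silences murine leukaemia virus in mouse stem cells, had 5.44, 4.49 and 6.13 CPM in TERT(High) cells and 3.61, 3.67 and 3.51 CPM in TERT(Low) cells (log2 fold change 0.57, SE 0.19, edgeR adjusted p = 0.10). For both genes the groups did not overlap, with TERT(High) above, and Zfp809 overlaps Zfp599 in the genome. The largest log2 fold changes of all, 2.24 for Zfp97, 2.14 for Zfp433 and 2.14 for Zfp960, belong to KRAB genes that did not pass (edgeR adjusted p = 0.0934, 0.103 and 0.0955). Of their transcript, 83.1%, 94.2% and 84.5% of the 50-base stretches also occur in transcripts of another gene, so their counts are uncertain. Zfp97 had 3.05, 0.974 and 1.63 CPM in TERT(High) cells and 0.245, 0.172 and 0.778 CPM in TERT(Low) cells, and Zfp960 had 2.71, 0.875 and 1.54 CPM in TERT(High) cells and 0.232, 0.191 and 0.740 CPM in TERT(Low) cells. Zfp433 had 4.52, 0.694 and 2.25 CPM in TERT(High) cells and 0.545, 0.325 and 0.816 CPM in TERT(Low) cells. The groups overlapped for Zfp433 and not for Zfp97 and Zfp960, which had their highest TERT(High) level in mouse 1 and their lowest in mouse 2.

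The group of 72 genes with 5 or more C2H2 fingers and no KRAB match held 7 of the 13, where 4.43% of all genes tested were higher. Its median transcript was 4017.5 nt, and 15.2% of all genes in the longest length quintile (over 4906 nt) were higher. Zfp62 (chr11:49203261-49218816), with 25 fingers, had 1.97, 1.14 and 2.75 CPM in TERT(High) cells and 0.463, 0.363 and 0.512 CPM in TERT(Low) cells. Its log2 fold change of 2.12 (SE 0.41, edgeR adjusted p = 0.0348) was the largest among the 13, on a mean of 71.7 raw counts. As with Zfp292, its mean raw count reached the limit of 60 in TERT(High) cells alone. Zfp292 (chr4:34803110-34882983), a very long transcript of 9986 nt, had 1.78, 2.23 and 2.35 CPM in TERT(High) cells and 0.749, 0.382 and 0.892 CPM in TERT(Low) cells. Its groups were apart, with a log2 fold change of 1.65 (SE 0.38, edgeR adjusted p = 0.0479, and 0.0525 with the mouse as a block), and the value was 0.46 once length and GC content were corrected for (edgeR adjusted p = 0.532). Zfp644 (chr5:106616739-106696834), whose human counterpart binds WIZ in complexes with the methyltransferases G9a and GLP, had 4.52, 3.77 and 5.23 CPM in TERT(High) cells and 1.73, 1.2 and 1.90 CPM in TERT(Low) cells (log2 fold change 1.48, SE 0.26, edgeR adjusted p = 0.0298). Even its lowest TERT(High) library held more than its highest TERT(Low) one.

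Zfp451 (chr1:33761541-33815602), whose human counterpart is a SUMO ligase, was tight within groups, at 3.57, 3.24 and 3.43 CPM in TERT(High) cells and 1.88, 1.47 and 1.52 CPM in TERT(Low) cells (log2 fold change 1.07, SE 0.21, edgeR adjusted p = 0.0348). Zfp143 (chr7:110061689-110095396), an activator known from small nuclear RNA genes, had 4.33, 3.06 and 3.31 CPM in TERT(High) cells and 1.61, 1.87 and 1.92 CPM in TERT(Low) cells. Its log2 fold change came to 0.99 (SE 0.23, edgeR adjusted p = 0.0475, and 0.0639 with the mouse as a block). The same class held Zfp800 (chr6:28210548-28398033), with 3.99 ± 0.38 CPM in TERT(High) cells and 1.87 ± 0.43 CPM in TERT(Low) cells (SD, n = 3 each) and a log2 fold change of 1.09 (SE 0.24, edgeR adjusted p = 0.0452). It also held Zfp507 (chr7:35772343-35803000), which overlaps E130304I02Rik, with 5.46 ± 1.33 CPM in TERT(High) cells and 2.67 ± 0.14 CPM in TERT(Low) cells (SD, n = 3 each) and a log2 fold change of 1.03 (SE 0.24, edgeR adjusted p = 0.0474). For both genes every TERT(High) library was above every TERT(Low) library.

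Others of this class that did not pass were Zfp260, Zfp217 and Zfp91. Zfp260, first described in heart muscle, had 9.60, 7.07 and 11.2 CPM in TERT(High) cells and 4.31, 3.97 and 6.81 CPM in TERT(Low) cells (log2 fold change 0.89, SE 0.28, edgeR adjusted p = 0.0955, and 0.0450 with the mouse as a block). Zfp217, whose human counterpart is amplified in breast cancer, had 2.68, 3.42 and 2.51 CPM in TERT(High) cells and 1.69, 2.02 and 1.59 CPM in TERT(Low) cells (log2 fold change 0.70, SE 0.23, edgeR adjusted p = 0.103). Zfp91, a ubiquitin ligase in human cells, is among the more abundant, at 52.3, 66.9 and 71.1 CPM in TERT(High) cells and 38.0, 42.3 and 48.7 CPM in TERT(Low) cells (log2 fold change 0.56, SE 0.18, edgeR adjusted p = 0.0934). The groups of all 3 genes lay apart, with TERT(High) above. Zfp91 overlaps Lpxn and Gm44505.

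The remaining 3 of the 13 were among the 35 genes with 1 to 4 C2H2 fingers and no KRAB match. Of all genes tested 4.43% were higher. Zfp638 (chr6:83867068-83986871), an RNA- and DNA-binding nuclear protein that promotes fat cell differentiation in mouse and silences unintegrated retroviral DNA in human cells, had 5.50, 4.89 and 7.50 CPM in TERT(High) cells and 2.08, 1.97 and 2.14 CPM in TERT(Low) cells. Its log2 fold change came to 1.53 (SE 0.22, edgeR adjusted p = 0.0277), and its TERT(Low) libraries differed by little. Zfp148 (chr16:33380775-33503903) and Zfp281 (chr1:136624901-136630391) bind GC-rich promoter sequence with the related fingers printed above. Zfp148 had 21.9, 11.3 and 19.1 CPM in TERT(High) cells and 6.58, 8.27 and 8.21 CPM in TERT(Low) cells (log2 fold change 1.18, SE 0.27, edgeR adjusted p = 0.0468, and 0.0626 with the mouse as a block), and its value turned to -0.11 once length and GC content were corrected for. Zfp281 had 9.91, 8.46 and 9.42 CPM in TERT(High) cells and 3.72, 4.68 and 5.12 CPM in TERT(Low) cells (log2 fold change 1.04, SE 0.19, edgeR adjusted p = 0.0320). For both factors the TERT(High) libraries, as counted, were all above the TERT(Low) libraries.

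Zfp609, a partner of the cohesin loader Nipbl in mouse neural progenitors, and Zfp106, an RNA-binding protein needed by motor neurons in mouse, had large but uneven differences. Zfp609 had 3.10, 13.8 and 8.18 CPM in TERT(High) cells and 2.19, 2.85 and 1.2 CPM in TERT(Low) cells (log2 fold change 2.01, SE 0.58, edgeR adjusted p = 0.0776). Zfp106 had 14.2, 27.1 and 35.2 CPM in TERT(High) cells and 12.3, 6.93 and 11.8 CPM in TERT(Low) cells (log2 fold change 1.30, SE 0.38, edgeR adjusted p = 0.0792). In mouse 1 both genes were higher in TERT(High) cells by less than in the other mice. Zfp830, an essential gene of the early mouse embryo with a part in splicing, averaged 4.90 ± 0.16 CPM in TERT(High) cells and 4.21 ± 0.59 CPM in TERT(Low) cells (SD, n = 3 each; log2 fold change 0.22, SE 0.18, edgeR adjusted p = 0.493), and it overlaps Cct6b.

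None of the 3 CCCH genes passed the test. Zfp36, which encodes tristetraprolin, had 65.1, 50.8 and 35.2 CPM in TERT(High) cells and 63.1, 89.8 and 16.1 CPM in TERT(Low) cells, a log2 fold change of -0.16 (SE 0.58, edgeR adjusted p = 0.878). Its levels overlapped and varied more between TERT(Low) libraries of different mice than between the populations, and the sign turned to 0.11 with the mouse as a block. Zfp36l1 had 54.2, 56.5 and 64.0 CPM in TERT(High) cells and 27.0, 51.2 and 37.9 CPM in TERT(Low) cells (log2 fold change 0.59, SE 0.24, edgeR adjusted p = 0.168), and its groups lay apart. Zfp36l2 had 18.9, 8.19 and 6.93 CPM in TERT(High) cells and 9.29, 6.40 and 3.38 CPM in TERT(Low) cells (log2 fold change 0.83, SE 0.50, edgeR adjusted p = 0.333). It was higher in TERT(High) cells of each mouse, while the groups overlapped.

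Of 24 genes listed as CCR4-NOT subunits and other decay partners of the CCCH proteins, 5 were higher in TERT(High) cells and 0 lower, where 4.43% of all genes tested were higher and 3.71% lower. These genes were named after their values were seen, so the shares describe the list and do not test it. The list's median was 0.46 on the log2 scale, against -0.01 over all genes tested. Cnot1, the scaffold of the CCR4-NOT complex, had 42.7, 61.0 and 53.6 CPM in TERT(High) cells and 23.7, 28.5 and 20.1 CPM in TERT(Low) cells (log2 fold change 1.12, SE 0.20, edgeR adjusted p = 0.0321). Xrn1, the exonuclease that degrades decapped messenger RNA, had 5.73 ± 0.28 CPM in TERT(High) cells and 1.69 ± 0.19 CPM in TERT(Low) cells (SD, n = 3 each; log2 fold change 1.76, edgeR adjusted p = 0.0241). The other 3 were Cnot4, Cnot6l and Cnot2, with log2 fold changes of 1.38, 1.06 and 0.76, and the list's median was 0.13 after the correction for transcript length and GC content described below. The corrected values were 0.15 for Cnot1, 1.06 for Xrn1, 1.09 for Cnot4, 0.65 for Cnot6l and 0.60 for Cnot2. Without the TERT(High) library of mouse 1, 6 genes of this list were higher and 1 lower, where 6.85% of all genes were higher and 5.21% lower. With any other library or any mouse left out 0 passed, as in the whole table. With the length and GC correction 0 passed, as in the whole table. With that and the mouse as a block 2 were higher, where 0.965% of all genes were.

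Of 36 genes listed as partners of KRAB proteins in silencing, 35 were tested, 3 were higher in TERT(High) cells and 0 lower, where 4.43% of all genes tested were higher and 3.71% lower. Trim28, the corepressor that KRAB domains bind, averaged 35.5 ± 6.77 CPM in TERT(High) cells and 33.0 ± 9.99 CPM in TERT(Low) cells (SD, n = 3 each), a log2 fold change of 0.11 (edgeR adjusted p = 0.823) whose sign turned to -0.03 after the length and GC correction. Setdb1, which methylates histone H3, averaged 12.8 ± 3.24 CPM in TERT(High) cells and 8.50 ± 1.54 CPM in TERT(Low) cells (SD, n = 3 each; log2 fold change 0.60, edgeR adjusted p = 0.151). The 3 that passed were Fam208a, a subunit of the HUSH silencing complex, Morc2a, an ATPase that works with HUSH, and Morc3, a related ATPase. Fam208a had 4.21, 5.45 and 5.16 CPM in TERT(High) cells and 1.62, 1.72 and 1.88 CPM in TERT(Low) cells (log2 fold change 1.51, SE 0.20, edgeR adjusted p = 0.0277). The log2 fold changes of Morc3 and Morc2a were 1.08 (SE 0.20, edgeR adjusted p = 0.0340) and 1.0 (SE 0.22, edgeR adjusted p = 0.0452). After the length and GC correction the values were 0.44 for Fam208a, 0.62 for Morc3 and 0.45 for Morc2a. The list's median was 0.43, against -0.01 over all genes tested, and 0.22 after the length and GC correction, where 0 passed. Without the TERT(High) library of mouse 1, 8 genes of the list were higher and 1 lower, where 6.85% of all genes were higher and 5.21% lower. With any other library or any mouse left out 0 passed, as in the whole table.

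The most abundant Zfp genes for their length did not pass the test. Zfp207, which binds the checkpoint protein Bub3 and the mitotic spindle, led at 19.8 CPM per kb over all libraries, followed by Zfp36 at 19.1, Zfp706 at 17.1, Zfp36l1 at 16.2 and Zfp967 at 12.3 CPM per kb. Zfp207 had 27.8, 36.2 and 23.5 CPM in TERT(High) cells and 31.3, 37.9 and 28.4 CPM in TERT(Low) cells (log2 fold change -0.16, SE 0.21, edgeR adjusted p = 0.661). Zfp706, a small protein that promotes exit from self-renewal in mouse stem cells, had 91.1, 67.4 and 58.6 CPM in TERT(High) cells and 73.0, 88.1 and 75.2 CPM in TERT(Low) cells (log2 fold change -0.12, SE 0.20, edgeR adjusted p = 0.722), with a sign that turned to 0.04 when libraries were scaled by their totals alone. In both genes the groups overlapped. Zfp967 carried exactly the same count in every library as Zfp966 (1092, 981 and 1182 in TERT(High) and 1121, 822 and 1167 in TERT(Low) libraries). Every 50-base stretch of the Zfp967 transcript occurs in another gene, so the pair stands for 1 measurement. The transcript used measured 1458 nt for Zfp967 and 2939 nt for Zfp966, so the level per kb of Zfp967 depends on that choice. Both genes are in the sums over the 207. Most Zfp genes were rarer, with a median of 2.68 CPM against 6.92 CPM over all genes tested, and 177 of the 207 were under 10 CPM in both groups.

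At the low end of the differences, no Zfp gene passed as lower. Zfp593, whose yeast counterpart takes part in making the large ribosomal subunit, had 5.03, 4.62 and 4.53 CPM in TERT(High) cells and 7.74, 7.58 and 6.87 CPM in TERT(Low) cells (log2 fold change -0.65, SE 0.16, edgeR adjusted p = 0.0538). Zfp954 had 4.67, 3.95 and 3.96 CPM in TERT(High) cells and 6.33, 5.58 and 6.56 CPM in TERT(Low) cells (log2 fold change -0.55, SE 0.17, edgeR adjusted p = 0.0912). Both had TERT(High) libraries wholly below TERT(Low) ones, and Zfp593 overlaps E130218I03Rik. Zfp365 had the lowest fitted value, -1.61, with an SE of 1.73. It had 0.131, 0.0661 and 1.68 CPM in TERT(High) cells and 4.26, 0 and 1.46 CPM in TERT(Low) cells, so that mouse 1 alone was far lower in TERT(High) cells, and without mouse 1 the value was 0.26.

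The Zfp genes were also described by class of protein. The median log2 fold change was 0.64 for the 91 genes with KRAB and C2H2 matches, of which 84 were above 0. It was 0.60 for the 72 genes with 5 or more fingers and no KRAB match, 59 of them above 0, and 0.27 for the 35 genes with 1 to 4 fingers, 25 of them above 0. It was 0.59 for the 3 CCCH genes and 0.15 for the 6 genes in which no finger pattern was found. By number of C2H2 fingers the median was 0.26 for 1 to 4, 0.56 for 5 to 9, 0.52 for 10 to 14 and 0.79 for 15 or more. The KRAB genes were the rarest class, with a median of 0.598 CPM per kb, against 1.66 CPM per kb for the genes with 1 to 4 fingers. These are descriptions of classes and no difference between them was tested.

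**Figure D2:**
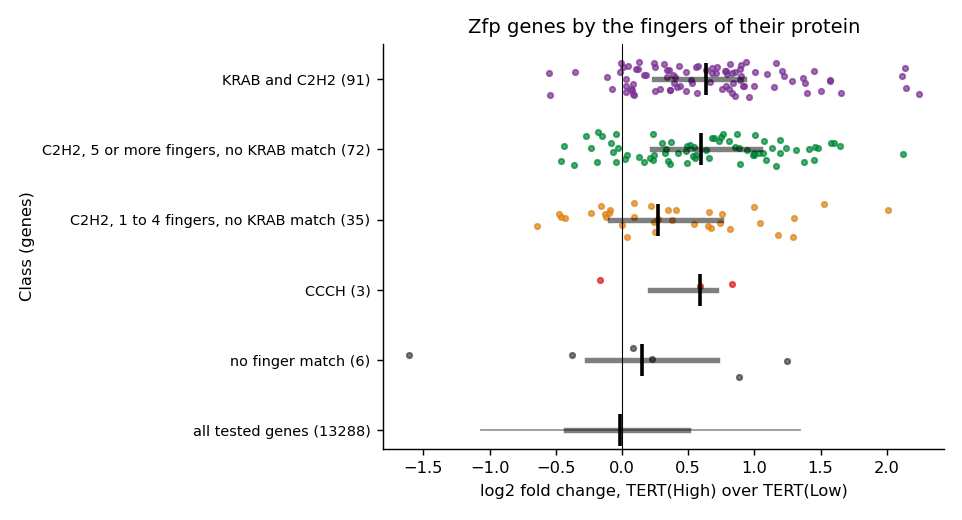
The log2 fold change, TERT(High) over TERT(Low), of each Zfp gene (points) by the fingers found in its protein, with all genes tested in the bottom row. Black ticks are medians, thick bars run between the quartiles, and the thin grey line of the bottom row runs between its 5th and 95th percentiles. As counted, before the length and GC correction, the medians run between 0.15 and 0.64 in the classes and lie at -0.01 over all genes tested.

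Transcript length moved with the difference between the populations in the whole table, and Zfp transcripts are long. Their median was 3544 nt with 46.2% GC, against 2963.5 nt and 50.5% over all genes tested. Spearman's rho between log2 fold change and transcript length was 0.48 across the 207 Zfp genes and 0.48 across all genes tested. With GC content it was -0.41 across the Zfp genes and -0.27 across all genes. These are correlations across genes of the same 6 libraries, given without a test. From the shortest to the longest length quintile, the Zfp medians were -0.03, 0.10, 0.49, 0.77 and 0.90 (18, 26, 54, 56 and 53 genes), beside -0.46, -0.16, 0.06, 0.28 and 0.65 over all genes tested. All 13 genes past the threshold had transcripts of 3003 nt or more, with a median of 4937 nt.

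**Figure D3:**
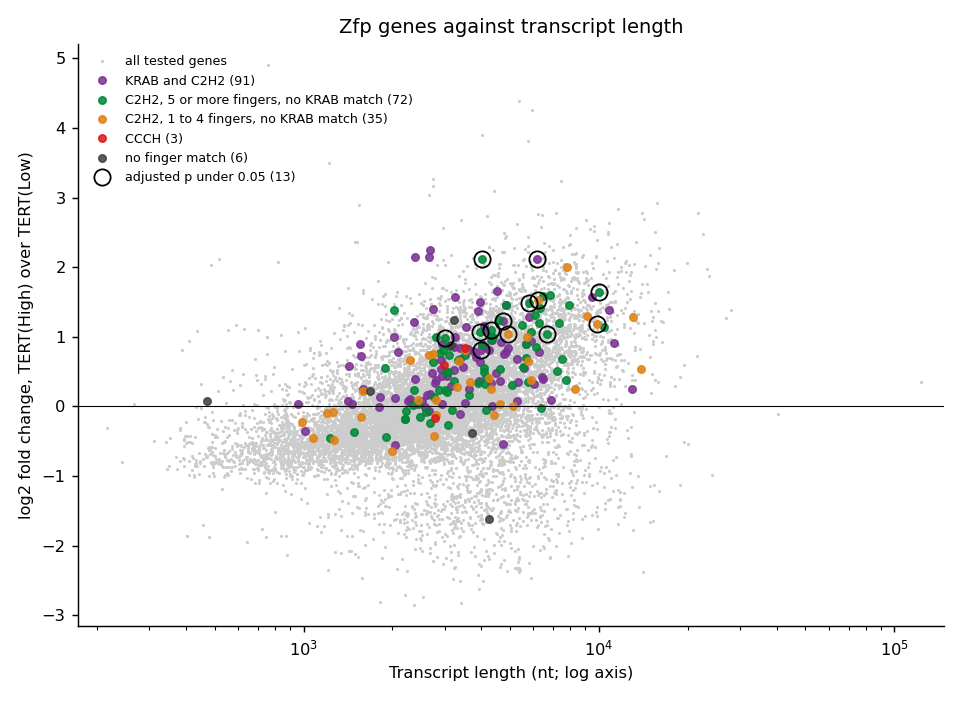
The log2 fold change, TERT(High) over TERT(Low), against transcript length in nucleotides on a log axis. Colours give the class of each Zfp gene, small grey points are all genes tested and black rings mark the 13 genes past the threshold, whose transcripts measure 3003 nt or more.

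A fit that removed each library's trend on transcript length and GC content left a smaller lean. The median log2 fold change of the Zfp genes was then 0.20 (quartiles -0.07 and 0.50) against -0.04 over all genes, with 146 of the 207 above 0 (70.5%, against 45.8%). In that fit 0 of the 12544 genes, and so 0 Zfp genes, had an edgeR adjusted p under 0.05, while 30 Zfp genes were higher (14.5%, against 8.25%) and 10 lower (4.83%, against 8.59%) at an unadjusted p under 0.05. The 13 genes had corrected log2 fold changes between -0.11 and 1.52, with a median of 0.58 against 1.18 before. Zfp62 and Zfp445 kept 1.52 and 1.33 (edgeR adjusted p = 0.0995 and 0.0593), while Zfp148 turned to -0.11. With the mouse added as a block, 2 were higher, Zfp445 and Zfp146, and 0 lower (0.966% higher, against 0.965% of all genes, and for lower 1.13%). By length quintile the corrected Zfp medians were 0.32, 0.16, 0.28, 0.26 and 0.04, beside -0.02, -0.03, -0.04, -0.06 and -0.12 over all genes.

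**Figure D4:**
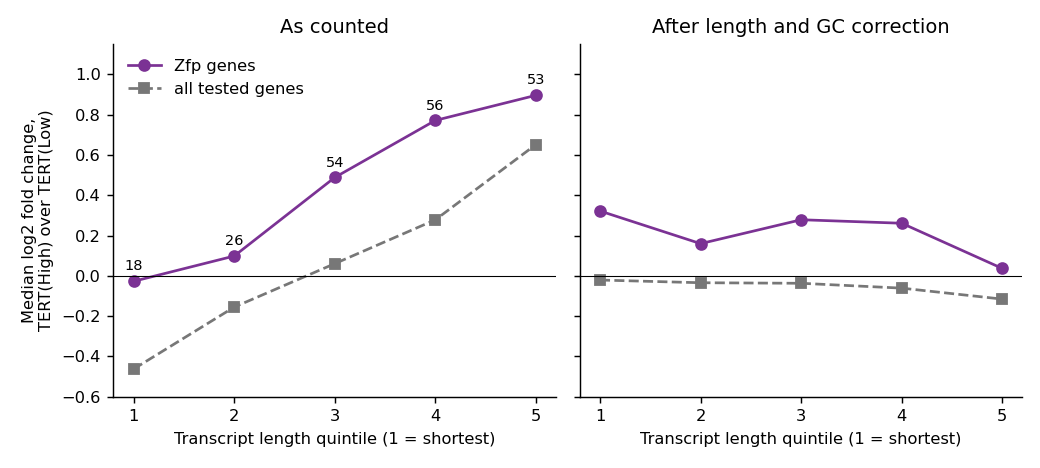
Median log2 fold change, TERT(High) over TERT(Low), by quintile of transcript length, as counted (left) and after the length and GC correction (right). Purple circles are Zfp genes, with the number of genes above each point on the left, and grey squares are all genes tested. The Zfp line runs above the other in every quintile of both panels, and its rise from -0.03 to 0.90 on the left is absent on the right.

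The mouse as a block moved the count of calls. Since each mouse gave both populations, per the labels, a fit with the mouse as a term was made. In it 20 Zfp genes were higher and 0 lower (9.66%, against 5.43% and 4.3% of all genes), of which 9 were among the 13. The 4 that fell out were Zfp292, Zfp148, Zfp143 and Zfp317, with adjusted p between 0.0525 and 0.0639 by edgeR. The 11 that came in included Zfp568, Zfp260 and Zfp146.

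Many Zfp genes stand next to each other. With a gap of at most 250 kb between neighbours, 72 of the 207 fell into 14 runs of 3 or more, and chromosome 7 alone held 43 Zfp genes. In 9 of the 14 runs every gene had a log2 fold change above 0, where 84.1% of all 207 Zfp genes were above 0. No gene in any run passed the test, against 6.28% of the 207 Zfp genes and 8.14% of all genes tested. The run medians are as counted, before the length and GC correction. Some genes in runs share sequence with other genes, so their counts are uncertain. For Zfp58 and Zfp729b, both on chromosome 13, 50.2% and 40.8% of the 50-base stretches were shared. Whether genes in runs differed from other Zfp genes was not tested. The longest run, 10 genes on chr7:127233061-127885996 from Zfp553 to Zfp646, had a median of 0.24 with 8 above 0. A run of 9 KRAB genes on chr13:67339309-67729178, from Zfp953 to Zfp65, had a median of 0.79 with 8 above 0. The run of 7 on chr7:29768552-30169775 that holds Zfp568, Zfp260 and Zfp146 had a median of 0.85, and 5 KRAB genes on chr17:21488934-21994366, from Zfp53 to Zfp943, had the highest median, 1.40.

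**Figure D5:**
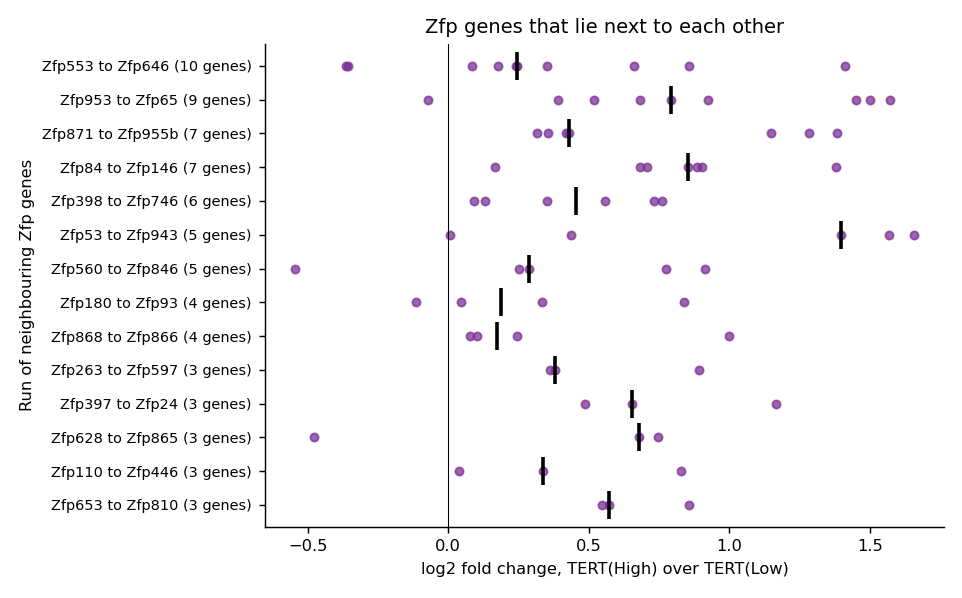
The log2 fold change, TERT(High) over TERT(Low), of the Zfp genes in each of the 14 runs of neighbours, named by their first and last gene. Points are genes and black ticks are medians, as counted, before the length and GC correction. The medians lie above 0 in every run and reach 1.40 in the run from Zfp53 to Zfp943.

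The counts were last set against sequence sharing, gene overlap and the count limit. For the 171 genes with at most 10% of 50-base stretches shared with another gene, the median log2 fold change was 0.57 and all 13 calls were among them. For the 171 genes that overlap no other counted gene the median was 0.64, with 11 of the 13 calls. The smallest mean raw counts inside the limit were 60 for Zfp174, 60.2 for Zfp689 and 60.5 for Zfp661, with log2 fold changes of 0.38, 0.25 and 0.83. Just outside it were Zfp429 at 59.7, Zfp341 at 59.3 and Zfp119a at 59.3. Of the 151 Zfp genes under the limit, 114 were tested and 0 passed. The median log2 fold change of those 114 was 0.66, against 0.55 for the Zfp genes inside the limit. These medians were not compared by a test.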

How the data were processed

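Per the labels, cells were sorted into TRIzol-LS, and the RNeasy micro kit and KAPA Stranded mRNA-Seq kit served for RNA and libraries. The submitters' processing notes name the build mm10 and the tools TopHat2 2.0.13, Trim Galore 0.4.0 and DESeq2. How reads were counted (tool, strand, annotation) is not stated in the sources used here, so antisense and overlapping genes and close paralogs are uncertain. Per the file headers, the deposited count table holds raw counts by gene and library. In the authors' deposited table, per the file headers, the signal column is baseMean, and log2 fold changes, their standard errors, a test score and p-value columns follow; its fold direction was read from the counts.

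Here edgeR 4.0.16 (R 4.3.3) was fitted to all 6 libraries by group, with filterByExpr, TMM, robust quasi-likelihood and Benjamini-Hochberg adjustment over 13288 genes, which included all 207 Zfp genes. The SE is the absolute log2 fold change over the square root of F. Alternatives changed scaling, filter, tool (DESeq2 1.42.0, limma-voom of limma 3.58.1), threshold, libraries and the mean count limit, added the mouse as a block, or added offsets from each library's lowess trend (span 0.3, prior count 2) on transcript length and GC content. The tests were tried on simulated data. Deviations from the group mean correlated between the libraries of mouse 1 at -0.089, of mouse 2 at 0.733 and of mouse 3 at 0.601. The pairing itself comes from the labels. The main test ignores it.

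All 207 genes matched RefSeq GRCm38.p6 by Entrez number, and all had a GENCODE M21 coding transcript (the longest coding sequence). Its translation was searched for C-x(2,4)-C-x(12)-H-x(3,5)-H (C2H2), C-x(7,10)-C-x(5)-C-x(3)-H (CCCH) and, near the start, a KRAB core. Fingers and KRAB domains that deviate from these patterns are missed. A gene with no KRAB match may thus still encode a KRAB domain. Shared sequence was measured as 50-base stretches found in transcripts of other genes, in place of protein identity. Genes are named if they passed the test, were the 5 most abundant per length, lay nearest the count limit, had the 3 largest or smallest changes, or were on a fixed list of known genes, plus Tert and the partner lists. Zfp125, on that list, was not analysed here. Zfp146, Zfp966, the decay partners and the neighbour runs were named in addition, after their values were seen. The Zfp genes and the lists were chosen with earlier results of these data known. Tables and figures were made with pandas 2.3.3, numpy 2.4.6 and matplotlib 3.10.9 in Python 3.11.15.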

Additional observations from a re-analysis of the deposited data

How the results depend on the processing

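Against 13 Zfp genes higher in TERT(High) cells, there were 7 with DESeq2's size factors in edgeR, 8 each with upper-quartile scaling, library totals, no filter and limma-voom, 23 with a strict filter (at least 1 CPM in all libraries), 44 with DESeq2, 20 with the mouse as a replicate block, 0 with the length and GC correction, 2 with that correction and the block, 48 at an adjusted p under 0.1 and 76 at an unadjusted p under 0.05. With 1 library or 1 mouse left out the count ran between 0 and 14. Over all genes, 588 of 13288 were higher in the main fit, 529 with DESeq2's size factors, 542 with upper-quartile scaling and 628 with library totals. There were 515 with limma-voom, 1508 of 11724 with DESeq2, 721 with the block and 2164 at an unadjusted p under 0.05. With no filter 492 of 15565 genes were higher, and with the strict filter 1043 of 9536. With the length and GC correction 0 of 12544 were higher, and 121 with that and the block. Against 0 Zfp genes lower, there was 1 each with upper-quartile scaling and the strict filter, 3 with DESeq2, 2 at an adjusted p under 0.1, 6 at an unadjusted p under 0.05, and 0 to 1 with a library or mouse left out. The median log2 fold change of 0.55 was 0.69 with library totals, which moved the median of all genes to 0.14, 0.44 with the strict filter, 0.20 with the length and GC correction, 0.19 with that and the block, and 0.49 to 0.60 with a library or mouse left out. With a mean raw count of at least 30, 13 of 258 genes were higher, and with at least 120, 11 of 140. Of all genes tested 4.43% were higher.

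Of the KRAB partner list, 3 genes were higher, against 8 with the strict filter, 11 with DESeq2, 0 with the length and GC correction, 0 with that and the block, 9 at an adjusted p under 0.1, 14 at an unadjusted p under 0.05 and 0 to 8 with a library or mouse left out. Against 0 lower, there was 1 each with the strict filter, the replicate block and the correction with the block, 3 with DESeq2, 2 at an adjusted p under 0.1, 4 at an unadjusted p under 0.05 and 0 to 1 with a library or mouse left out. Of the decay partners, 5 were higher, against 6 with the replicate block, 7 with the strict filter, 8 with DESeq2 (and 1 lower), 0 with the correction, 2 with that and the block and 0 to 6 with a library or mouse left out. For both lists, counts over all genes in most of these settings are those given above.

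Some single genes changed sign. With the length and GC correction, alone and with the replicate block, the log2 fold change was -0.11 and -0.11 for Zfp148, 0.105 and 0.0949 for Zfp207, -0.26 and -0.32 for Zfp174 and -0.0338 and -0.0199 for Trim28, and it was -0.00608 for Zfp91 with the correction alone. Zfp36 was at 0.11 with limma-voom, 0.11 with the block and 0.14 with the block and correction, Zfp706 at 0.0400 with library totals and Zfp967 at -0.0193 with upper-quartile scaling. With a library or mouse left out the value ran between -0.12 and 0.31 for Trim28, -0.12 and 0.73 for Zfp174, -0.60 and 0.38 for Zfp36, -4.25 and 0.26 for Zfp365, -0.16 and 0.30 for Zfp429, -0.37 and 0.0214 for Zfp706, and -0.0649 and 0.23 for Zfp967. Other such values past 0 were 0.354 for Zfp36 without TERT(Low) mouse 2, -0.0731 for Zfp429 without mouse 2, 0.0121 for Zfp706 without TERT(High) mouse 3 and -0.0523 for Zfp967 without mouse 1. The cause of these changes was not tested. The libraries' spread limits single calls, with a coefficient of variation between libraries of 40.7% and, with the block, 29.64%.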
